A study of Mus musculus with 6 samples.

Results

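The circles described here come from 5 mouse genes that move calcium across membranes: the inositol trisphosphate (IP3) receptor genes Itpr1 and Itpr2, the ryanodine receptor gene Ryr2, the voltage-gated calcium channel gene Cacna1d and the sodium-calcium exchanger gene Slc8a1. They were picked by gene name from the table of circular RNAs (circRNAs, closed loops in which a splice donor joins an acceptor upstream of it), with the fold changes and p-values of these circles in view. The 5 genes gave 97 of the 27999 circRNAs listed, from 7411 host genes in all. Itpr1 gave 39, Itpr2 37, Ryr2 14, Slc8a1 5 and Cacna1d 2. All 97 were exonic circles, and both ends of each lay on exon ends of the isoform that the authors named.

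The study set adult ovaries (6 weeks old, 3 libraries) beside neonatal ovaries (postnatal day 5, 3 libraries) of C57BL/6 mice, an inbred wild-type strain, with no treatment named for either age. Total RNA was digested with RNase R, which removes linear RNA, before stranded paired-end sequencing, so every value refers to RNA that survived the enzyme. The labels do not say whether a library came from 1 animal or from pooled ovaries, so the p-values reflect no more than the spread among these libraries, and part of it may be technical. In the files the libraries carry the letters A and B, which match no label. No age is therefore assigned to either letter, values per library and their depth were not used here, and no level or standard deviation is given. What follows rests on the authors' deposited comparison of A over B and on the positions of the circles.

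Calcium leaves the endoplasmic reticulum through 2 families of channels, the IP3 receptors and the ryanodine receptors. IP3 receptors open when phospholipase C makes IP3, and in mammalian eggs the Itpr1 protein carries the calcium waves that follow fertilization. Ryanodine receptors release calcium in muscle and nerve cells, and Ryr2 is the form of heart muscle. Cacna1d encodes the pore of an L-type channel of the plasma membrane that opens on depolarization, and Slc8a1 encodes an exchanger that carries calcium out of the cell in return for sodium.

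The authors marked 5 of the 97 circles as different between A and B, against 1.75% of all circRNAs (4.59% of those with values in 2 or more libraries), and these are shown first because the comparison turns on them. Each line below runs 5′ to 3′ across the back-splice junction, the only stretch that tells a circle from the linear transcript. It holds the last 30 bases of the last exon in lower case and the first 30 bases of the first exon in capitals, read from the GENCODE M21 transcripts of GRCm38.
Itpr2 circRNA2032 (exons 3 to 5 of 57, minus strand, chr6:146422706-146426570): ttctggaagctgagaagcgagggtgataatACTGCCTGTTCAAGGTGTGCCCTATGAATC
Itpr2 circRNA2029 (exons 50 to 55, minus strand, chr6:146144109-146173408): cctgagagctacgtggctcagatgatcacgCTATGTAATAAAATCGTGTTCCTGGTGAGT
Ryr2 circRNA84 (exons 24 to 27 of 105, minus strand, chr13:11769852-11785141): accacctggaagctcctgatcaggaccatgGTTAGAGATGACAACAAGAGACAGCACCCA
Cacna1d circRNA1279 (exons 2 and 3 of 47, minus strand, chr14:30346798-30350949): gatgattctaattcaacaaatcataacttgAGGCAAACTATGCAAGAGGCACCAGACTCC
Slc8a1 circRNA954 (exons 7 to 9 of 10, minus strand, chr17:81408067-81432774): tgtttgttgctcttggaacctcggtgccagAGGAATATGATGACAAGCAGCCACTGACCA

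All 5 marked circles were higher in A, against 1.23% of all circRNAs marked as higher there (3.22% of those with values in 2 or more libraries), and none was higher in B, against 0.521%. The authors' mark stands for an unadjusted p under 0.05 together with a log2 fold change of 1 or more in either direction. With p under 0.05 alone the members are the same 5, against 1.95% of all circRNAs, and with p under 0.01 and that fold they are 2, against 0.521%. The adjusted p by the authors' deposited table was 0.522 for each of the 5, and no circRNA of the whole table passed an adjusted p of 0.05, so none of them is set apart singly. Since the members were chosen with these values known, the marks describe them and test nothing. In whole ovaries, fewer cells that make a circle and less of it in each cell cannot be told apart.

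Circles of the 5 hosts lay mostly toward A. Of the 97 circles, 79 were higher in A (81.4%) and 18 in B, against 66.0% higher in A among all circRNAs. A value in only 1 of the 6 libraries stood behind 53 of the 97 (54.6%), against 62.0% of all circRNAs; such circles were recognised by a p of 0.423, which an unequal-variance test gives whatever the value is. Among the 44 circles with values in 2 or more libraries, A held the higher mean for 40 (90.9%, against 70.1% of all circRNAs) and B for 4. Of the 40, 15 had values in A only and so passed this filter through A alone. Of the 4, 2 had values in B only. Among the 27 with values in both groups, 25 were higher in A and 2 in B (67.3% of all such circRNAs were higher in A), and 22 lay above 0.418, the median log2 fold change by the authors' deposited table of all circRNAs with values in both groups. The median of the 27 by the authors' deposited table was 0.99. Circles of a host share splice sites and RNA, so these counts are not counts of independent observations. The hosts were picked with these fold changes in view, so the shares describe them and test nothing.

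**Figure D1:**
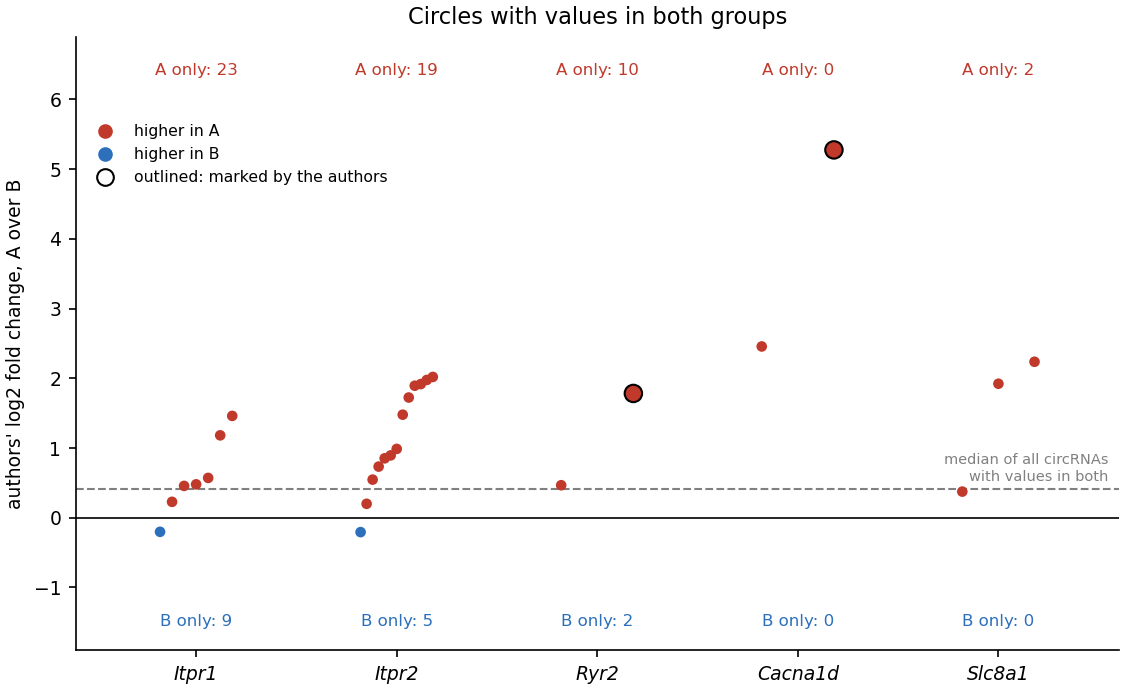
Log2 fold changes of A over B from the authors' deposited table for the 27 circles with values in both groups, by host gene, with outlined points for circles marked by the authors and the numbers of circles seen in A only and in B only. The points of Ryr2, Cacna1d and Slc8a1 all lie above 0, and 1 point each of Itpr1 and Itpr2 lies below it.

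The hosts differed in how many circles they gave for their size. Itpr2 gave 0.649 circles per exon of its isoform and Itpr1 0.629, ranks 6 and 7 among the 266 hosts whose isoform has at least 40 exons, where the median was 0.126. Ryr2, with 105 exons, gave 0.133 circles per exon (rank 129) and Cacna1d 0.0426 (rank 218). Slc8a1, whose named isoform has 10 exons, falls below that exon number. Only the ends of a circle are listed, and the exons between them are inferred here and below. On that basis circles spanned the IP3 receptor genes almost end to end. At least 1 circle spanned 58 of the 62 exons of Itpr1 and 53 of the 57 exons of Itpr2. All counts here include circles with a value in 1 library, 26 of 39 in Itpr1, 16 of 37 in Itpr2 and 10 of 14 in Ryr2. Circles with values in 2 or more libraries spanned only exons 14 to 53 of Itpr1. In Itpr2 such circles spanned exons 3 to 10, 17 to 37 and 46 to 55. For Ryr2 these were 32 of 105 exons, for Slc8a1 8 of 10 and for Cacna1d 4 of 47.

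Circles of these hosts lay in coding sequence, as most exonic circRNAs did, and the long ones came from the IP3 receptor genes. The median exon number of the 97 was 5, against 3 over all exonic circRNAs, and 14 (14.4%) had 10 exons or more, against 3.73%. Of these 14, Itpr1 gave 9 and Itpr2 5, and the other hosts gave 0. Only circRNA1974, circRNA1976 and circRNA21333 of Itpr1 had values in 2 or more libraries. Each of the other long circles, with all 5 of Itpr2, had a value in 1 library, so the excess of long circles rests mostly on those. The median exonic length was 705 nt in Itpr1, 788 nt in Itpr2, 507 nt in Slc8a1, 499.5 nt in Ryr2 and 351 nt in Cacna1d, against 469 nt over all. None had 1 exon only, against 1319 of the 26144 exonic circRNAs. Coding sequence alone made up 96 of the 97, against 21547 of the 25828 exonic circRNAs placed. The other circle held the start codon of Itpr1. A length that is a multiple of 3, which keeps the reading frame around the loop, was found for 37 of the 96 (38.5%), against 39.5% of all circRNAs of coding sequence. Exonic lengths assume that a circle holds every exon of the named isoform between its ends. Other annotated isoforms with the same ends gave another length for 16 of the 97 circles, by 3 nt for 8 Itpr1 circles, 99 nt for 5 Itpr2 circles that start at exon 3, 36 nt for both Slc8a1 circles that start at exon 2 and up to 1096 nt for 1 Ryr2 circle, circRNA82.

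Itpr1 lies on the plus strand of chromosome 6 (108213096 to 108551109 in GRCm38) and had no marked circle. Of its 39 circles, 26 had a value in 1 library only. Of the 13 others, 11 were higher in A and 2 in B. The 7 circles with values in both groups ran from -0.20 to 1.46 on the log2 scale by the authors' deposited table, with a median of 0.48, beside the 0.418 of all circRNAs. The largest of them was circRNA1979 (exons 47 to 49, 408 nt), 2.75-fold higher in A by the authors' deposited table (p = 0.256). The smallest p that the authors' deposited table gave to an Itpr1 circle was 0.187, for circRNA8785 (exons 49 to 51, 324 nt), seen in A only. Going the other way, circRNA21333 (exons 43 to 53) had values in B only, in 2 or more libraries (p = 0.188 by the authors' deposited table).

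Size varied most within Itpr1. Its circRNA17006, with exons 14 to 60, held 47 exons and 6850 nt, codons 384 to 2667, and had a value in 1 library of A. The shortest, circRNA17003, held 2 exons (3 and 4) and 179 nt. It was the circle with the start codon, and its exons encode the outermost N-terminal part of a receptor whose IP3-binding region is N-terminal and whose channel pore is C-terminal. Altogether 7 circles had 2 exons and 9 had 10 or more. Exons 43 and 44 were the most often circularized, each in 14 of the 39 circles. The donor of exon 44 closed 8 circles, the most of any splice site in the 5 hosts, and 5 of these were higher in A and 3 in B. Of the 3 in B, circRNA24884 and circRNA24885 had a value in 1 library, and circRNA17012 stood at -0.20 (p = 0.905 by the authors' deposited table). In A, circRNA17008 and circRNA17010 also had a value in 1 library. The intron after exon 44 is 30335 nt long, the second longest of the gene. The circles closed there began at 8 different exons, from exon 13 to exon 43, so they share 1 end and differ in how far back they reach.

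Itpr2 lies on the minus strand of the same chromosome (146111480 to 146501912) and held both marked circles of the IP3 receptor genes. Of its 37 circles 21 had values in 2 or more libraries, 19 of them higher in A and 2 in B. The 13 measured in both groups had a median log2 fold change of 0.99 by the authors' deposited table (range -0.21 to 2.02), and 11 of the 13 lay above the median of all circRNAs. The difference from Itpr1 was not tested. Both marked circles were seen in A only. By the authors' deposited table circRNA2032 had p = 0.0209 and circRNA2029 had p = 0.0254, and under an unequal-variance test a p this low needs values in all 3 libraries of A, since 2 libraries cannot give less than 0.184. No fold change can be given for either, because B was listed at 0. The circle circRNA2032 (362 nt, codons 55 to 175) covers the N-terminal part of the receptor, while circRNA2029 (912 nt, codons 2316 to 2619) covers the C-terminal part, where the membrane-spanning channel lies.

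Beside these stood circles that share an end with them. The circle circRNA2028, exons 49 to 55, uses the same donor as circRNA2029 and was 2.79-fold higher in A by the authors' deposited table (log2 1.48, p = 0.0612), not marked. Among the 13 circles with values in both groups, the largest fold was that of circRNA8926 (exons 25 and 26, 340 nt), 4.05-fold higher in A by the authors' deposited table (p = 0.278). Toward B lay circRNA8932 (exons 3 to 9), which starts at the same acceptor as the marked circRNA2032, at -0.21 by the authors' deposited table (p = 0.797), and circRNA21365 (exons 35 to 37), seen in B only (p = 0.186 by the authors' deposited table). Among the 6 circles that begin at exon 3, 4 were higher in A and 2 in B. The 2 in B were circRNA8932, with its small fold, and circRNA24937, with a value in 1 library. In A, circRNA8933 and circRNA17143 also had a value in 1 library, so these signs do not show that direction differed. Exon counts ran from 2 to 14, the most in circRNA24935 (exons 42 to 55, 2046 nt), which had a value in 1 library of B. The shortest was circRNA8919, with exons 53 and 54. It is printed whole as an example from the C-terminal region where circles of Itpr2 crowd, with exon 53 in lower case and exon 54 in capitals.
Itpr2 circRNA8919 (minus strand, chr6:146156970-146159017): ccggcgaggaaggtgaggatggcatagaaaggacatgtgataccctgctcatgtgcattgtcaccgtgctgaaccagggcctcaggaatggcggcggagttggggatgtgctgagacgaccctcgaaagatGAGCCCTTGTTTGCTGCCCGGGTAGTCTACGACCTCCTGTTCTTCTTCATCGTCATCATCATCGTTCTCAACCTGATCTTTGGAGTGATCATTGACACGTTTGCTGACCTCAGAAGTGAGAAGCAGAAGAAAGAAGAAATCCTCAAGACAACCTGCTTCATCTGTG

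Its 297 nt are a multiple of 3. The authors' deposited table put this circle at a log2 fold change of 0.89 (p = 0.461). Exons 50, 51, 53 and 54 were each part of 10 of the 37 circles, the most in Itpr2, against 14 for exons 43 and 44 of Itpr1.

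**Figure D2:**
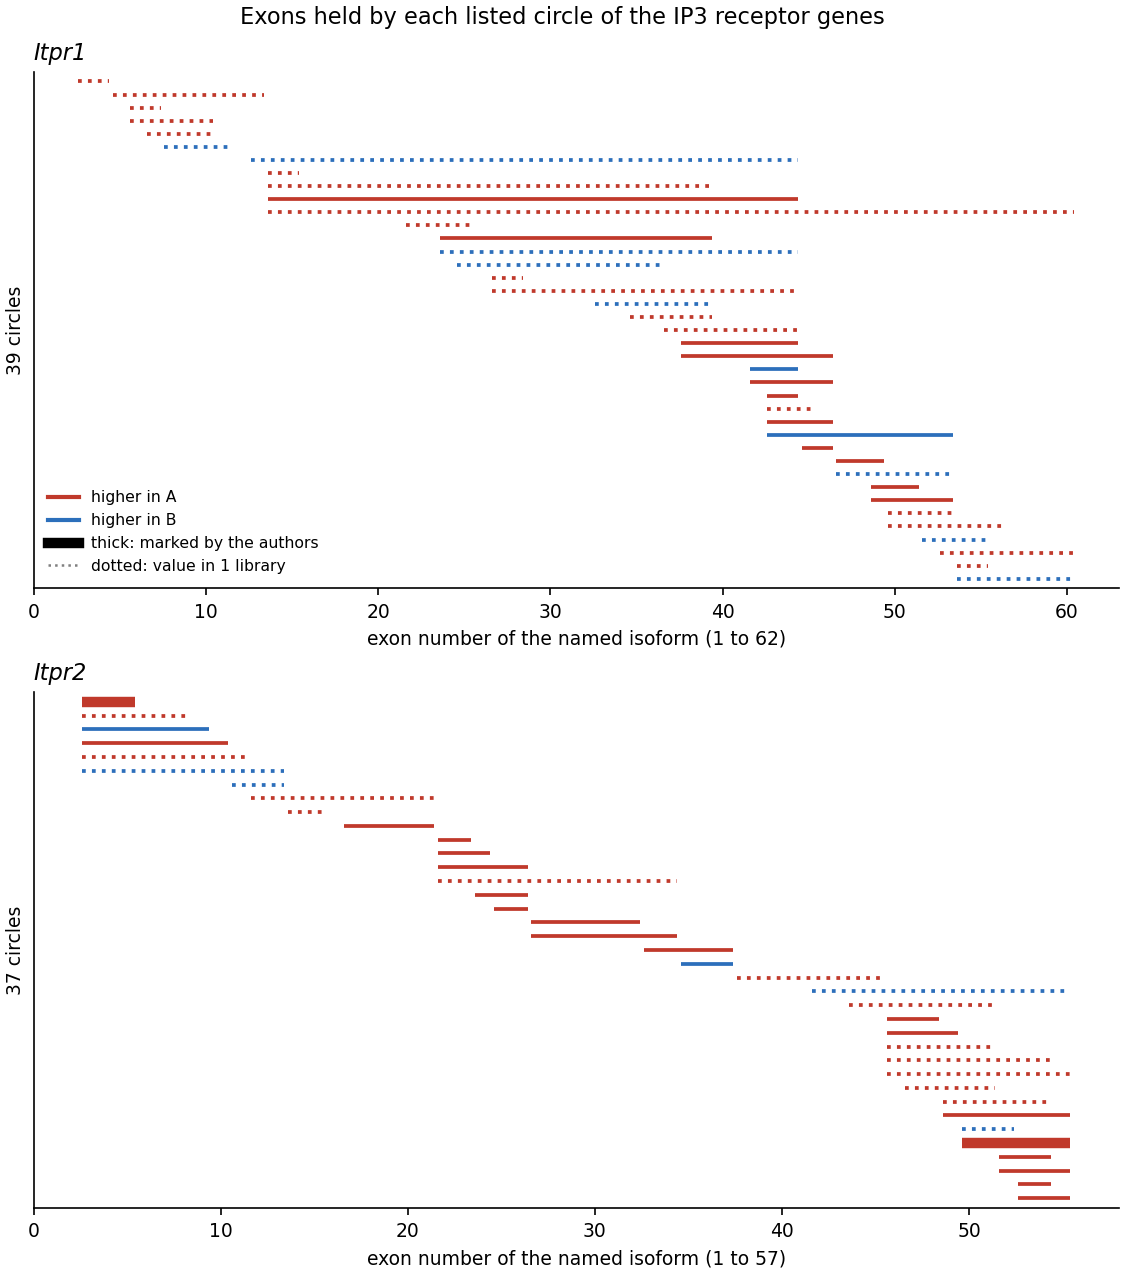
Exons held by each of the 39 Itpr1 circles and the 37 Itpr2 circles, as lines along the exon number of the named isoform, coloured by the group in which the circle was higher, dotted where 1 library held a value and thick where the authors marked the circle. Lines of Itpr1 pile up over exons 43 and 44 and many end at exon 44, and those of Itpr2 pile up over exons 46 to 55, with a second stack that begins at exon 3.

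The IP3 receptor genes are paralogs, and their proteins, translated from the named isoforms, were identical at 70.7% of 2678 aligned residues. Of the 59 exon boundaries within the coding sequence of Itpr1 and the 56 of Itpr2, 51 fell at the same codon and phase of the alignment, so circle ends could be compared between the genes. At these boundaries 21 acceptors were used by circles of Itpr1 and 15 by circles of Itpr2, and 11 were used in both genes (52.4% of those of Itpr1, 73.3% of those of Itpr2). For donors the numbers were 15 and 16, with 8 in common (8 of 15 and 8 of 16). Of whole circles, 2 pairs had both ends in common. One pair was Itpr1 circRNA8777 (exons 5 to 13, 988 nt) and Itpr2 circRNA17143 (exons 3 to 11, 985 nt), each with a value in 1 library of A. The other was Itpr1 circRNA24887 (exons 54 to 60, 1097 nt), with a value in 1 library of B, and Itpr2 circRNA2028 (1088 nt), higher in A. Their junctions are printed, with capitals for the first exon, because they show how far the paralogs' sequences differ where the same exons are joined.
Itpr1 circRNA8777 (plus strand, chr6:108339507-108369165): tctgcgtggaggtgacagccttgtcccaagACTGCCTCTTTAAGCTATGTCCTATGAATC
Itpr2 circRNA17143 (minus strand, chr6:146396913-146426570): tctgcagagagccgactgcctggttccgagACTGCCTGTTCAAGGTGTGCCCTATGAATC
Itpr1 circRNA24887 (plus strand, chr6:108505877-108523448): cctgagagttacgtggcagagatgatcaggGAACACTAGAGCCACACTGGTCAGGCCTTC
Itpr2 circRNA2028 (minus strand, chr6:146144109-146180355): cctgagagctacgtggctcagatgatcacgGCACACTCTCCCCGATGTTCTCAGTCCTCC

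The favoured boundaries differed between the paralogs. The donor of Itpr1 exon 44, with 8 circles, has its counterpart in Itpr2 exon 39, which closed none; the intron that follows is 30335 nt in Itpr1 and 6210 nt in Itpr2. The acceptor of Itpr2 exon 46 opened 5 circles behind an intron of 29388 nt, and its counterpart, Itpr1 exon 51, opened none behind 1206 nt. The acceptor of Itpr2 exon 3 opened 6 circles, and that of Itpr1 exon 5 opened 1, although the intron before it is the longer (50116 nt in Itpr2 and 98172 nt in Itpr1). At the last shared site, the donor of Itpr2 exon 55 closed 6 circles before an intron of 31570 nt, and that of Itpr1 exon 60 closed 3 before 18454 nt. Over the 30 matching boundaries with unequal numbers of circle ends, the gene with more ends had the longer intron at 20 and the shorter intron at 10. Where Itpr2 had more ends its intron was the longer at 10 of 11, and where Itpr1 had more ends its intron was the longer at 10 of 19. Among all 51 matching boundaries the intron was longer in Itpr2 at 29 and in Itpr1 at 22.

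**Figure D3:**
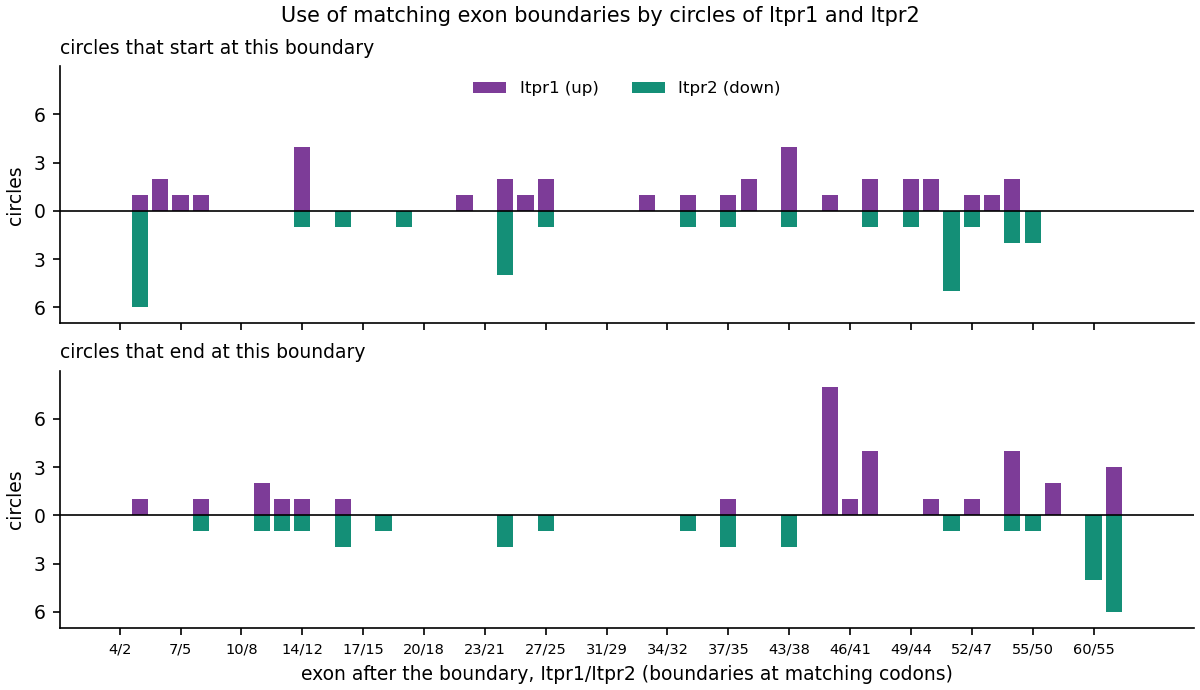
Number of circles that start (upper panel) or end (lower panel) at each of the 51 exon boundaries that match between Itpr1 (bars up) and Itpr2 (bars down), in transcript order, labelled with the exon after the boundary in each gene. The tallest bar is the donor before exon 45 of Itpr1, with 8 circles, where Itpr2 has none.

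Ryr2, on the minus strand of chromosome 13 (11553102 to 12106945), gave 14 circles, 12 higher in A and 2 in B, and 10 of them had a value in 1 library only. Each of the 4 seen in at least 2 libraries was higher in A. The marked circRNA84 (496 nt, codons 907 to 1072) had the smallest p of the 97 circles, 0.000187 by the authors' deposited table, and was 3.44-fold higher in A on the scale of group means (log2 1.78). Only circRNA83 (exons 59 to 62, 427 nt) also had values in both groups, at 0.47 by the authors' deposited table (p = 0.591). In A only lay circRNA82 (exons 74 to 76, p = 0.19) and circRNA3901 (exons 29 to 32, p = 0.198 by the authors' deposited table). The acceptor of exon 24, where circRNA84 begins, also opened circRNA13205, which runs on to exon 29 and had a value in 1 library of A.

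Circles of Ryr2 lay in separate clusters along the transcript. The first cluster held exons 6 to 16 with 5 circles, and the next held exons 24 to 32 with 4. Another 5 circles lay further along, the last of them circRNA22102 with exons 97 and 98 (195 nt, a value in 1 library of B). All 5 circles of the first cluster had a value in 1 library, as did circRNA13205 and circRNA3902 of the next. The clusters thus rest mostly on such circles. Exon counts ran from 2 to 8, the most in circRNA3904 (exons 6 to 13, 861 nt). The acceptor of exon 6 was the most used site, with 3 circles, all with a value in 1 library of A. In Ryr2 the long first intron (160396 nt) had no circle beside it, unlike the longest introns of the IP3 receptor genes, which are not first introns. The first introns of Itpr1 (849 nt) and Itpr2 (25029 nt) had no circle beside them either. The circle circRNA3905 (exons 11 and 12, a value in 1 library of A) is printed whole as the short circle inside the first cluster, where exons 11 and 12 were each part of 4 circles, with exon 11 in lower case and exon 12 in capitals.
Ryr2 circRNA3905 (minus strand, chr13:11851058-11853190): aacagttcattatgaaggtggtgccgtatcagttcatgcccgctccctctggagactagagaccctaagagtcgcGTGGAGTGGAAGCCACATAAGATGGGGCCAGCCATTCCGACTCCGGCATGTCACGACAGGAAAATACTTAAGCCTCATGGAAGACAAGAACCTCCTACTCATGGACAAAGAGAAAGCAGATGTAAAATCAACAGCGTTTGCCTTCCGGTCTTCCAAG

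Cacna1d, on the minus strand of chromosome 14 (30040440 to 30352991), had 2 circles at opposite ends of its 47 exons, both with values in both groups and both higher in A. Its circRNA1279 (exons 2 and 3, 416 nt, codons 23 to 161) was 38.8-fold higher in A by the authors' deposited table (log2 5.28, p = 0.0472). This was the largest fold among the 27 circles with values in both groups, with the highest p of the 5 that were marked. The intron after exon 3 is the longest of the gene, 149934 nt, and the one before exon 2 measures 1975 nt. Its circRNA7018 (exons 44 and 45, 286 nt, codons 1845 to 1940) encodes part of the cytoplasmic C-terminal tail and was 5.49-fold higher in A by the authors' deposited table (p = 0.241), not marked. Both are coding, and neither has a length that is a multiple of 3. The second circle is printed whole, with exon 44 in lower case and exon 45 in capitals.
Cacna1d circRNA7018 (minus strand, chr14:30045215-30047371): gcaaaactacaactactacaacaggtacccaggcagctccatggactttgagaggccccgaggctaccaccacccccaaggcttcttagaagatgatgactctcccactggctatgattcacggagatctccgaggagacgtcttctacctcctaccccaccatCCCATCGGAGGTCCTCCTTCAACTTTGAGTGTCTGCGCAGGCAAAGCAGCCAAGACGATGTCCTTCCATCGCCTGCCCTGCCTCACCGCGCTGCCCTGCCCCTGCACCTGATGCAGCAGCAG

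Slc8a1, on the minus strand of chromosome 17 (81388691 to 81649607), had 5 circles from only 3 acceptors and 2 donors, so 5 of the 6 possible pairs of these sites were listed. All 5 were higher in A. The marked circRNA954 (exons 7 to 9, 507 nt, codons 677 to 846) was seen in A only with p = 0.00273 by the authors' deposited table, and so had values in all 3 libraries of A under an unequal-variance test. It uses the acceptor of exon 7 and the donor of exon 9. The circle circRNA6189 pairs the same acceptor with the donor of exon 8 and had values in both groups, 3.79-fold higher in A by the authors' deposited table (p = 0.542). Of the circles that start at exon 2, circRNA6190 (exons 2 to 8, 461 nt) stood at 2.24, the largest fold of this host with values in both groups (p = 0.255 by the authors' deposited table). The other, circRNA6188 (exons 2 to 9, 8 exons and 737 nt), stood at 0.37 (p = 0.693 by the authors' deposited table).

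The donor of exon 9 closed 3 of the 5 Slc8a1 circles, 1 with values in both groups and 2 in A only. Exons 7 and 8 were part of all 5 circles. They encode part of the large cytoplasmic loop of the exchanger, downstream of the alternatively spliced exons that distinguish exchanger forms between tissues, and those short exons lie within the circles that start at exon 2. Slc8a1 is known in heart for a circle made of its large first coding exon, which in the isoform named here is exon 1 and holds the codons before codon 600. That exon was in none of the 5 circles analysed here. The shortest circle, circRNA6189, is printed whole because its 2 exons are the ones all 5 circles share, with exon 7 in lower case and exon 8 in capitals.
Slc8a1 circRNA6189 (minus strand, chr17:81428182-81432774): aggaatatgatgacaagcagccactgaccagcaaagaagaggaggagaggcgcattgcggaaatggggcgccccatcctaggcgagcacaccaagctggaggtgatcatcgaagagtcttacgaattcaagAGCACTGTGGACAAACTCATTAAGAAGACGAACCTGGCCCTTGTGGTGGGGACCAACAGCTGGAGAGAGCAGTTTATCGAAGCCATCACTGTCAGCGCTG

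**Figure D4:**
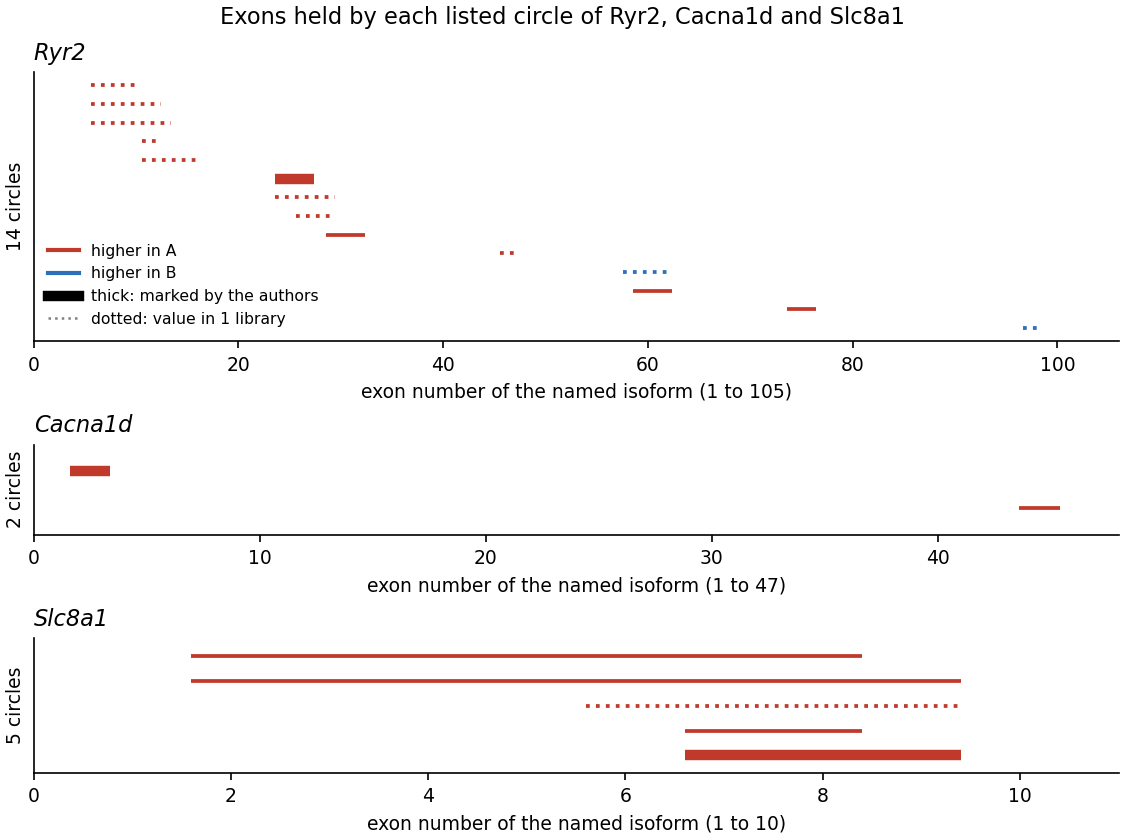
Exons held by each circle of Ryr2 (14 circles), Cacna1d (2) and Slc8a1 (5), as lines along the exon number of the named isoform, with colours and line styles as for the IP3 receptor genes. Ryr2 circles lie in separate clusters, the Cacna1d circles at opposite ends, and the Slc8a1 circles all cover exons 7 and 8.

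Long introns lay beside circles of Itpr2 and Slc8a1 above all, and in Cacna1d beside 1 of 4 circle ends. The mean of the introns on both sides was longer than the median of the isoform's other introns for 92 of 97 circles (94.8%), against 84.8% of the 25741 exonic circRNAs that could be measured. The median ratio was 22.6 in Cacna1d (2 circles), 6.19 in Itpr2, 3.23 in Slc8a1, 2.78 in Itpr1 and 2.71 in Ryr2, against 2.69 over all. Itpr1 and Ryr2 thus lay near the ratio of all exonic circRNAs. The 2 Cacna1d circles differed. Introns beside circRNA1279 measured 1975 and 149934 nt. Those beside circRNA7018 measured 1599 and 2128 nt, with a median of 1804 nt for the other introns. In Itpr2 all 37 circles had the longer flanks, in Itpr1 36 of 39 and in Ryr2 12 of 14 (85.7%). Taken intron by intron, a circle ended beside 13 of the 14 longest introns of Itpr2 and beside 13 of its 42 others. No share over all hosts is given for these intron counts. For Itpr1 these numbers were 13 of 15 and 21 of 46, for Ryr2 12 of 26 and 8 of 78, for Slc8a1 2 of 2 and 3 of 7, and for Cacna1d 1 of 12 and 3 of 34. The longest intron of Itpr1, 98172 nt between exons 4 and 5, had a circle on each side, and the 2 longest of Itpr2, 50279 and 50116 nt, had 3 and 6 circle ends beside them.

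**Figure D5:**
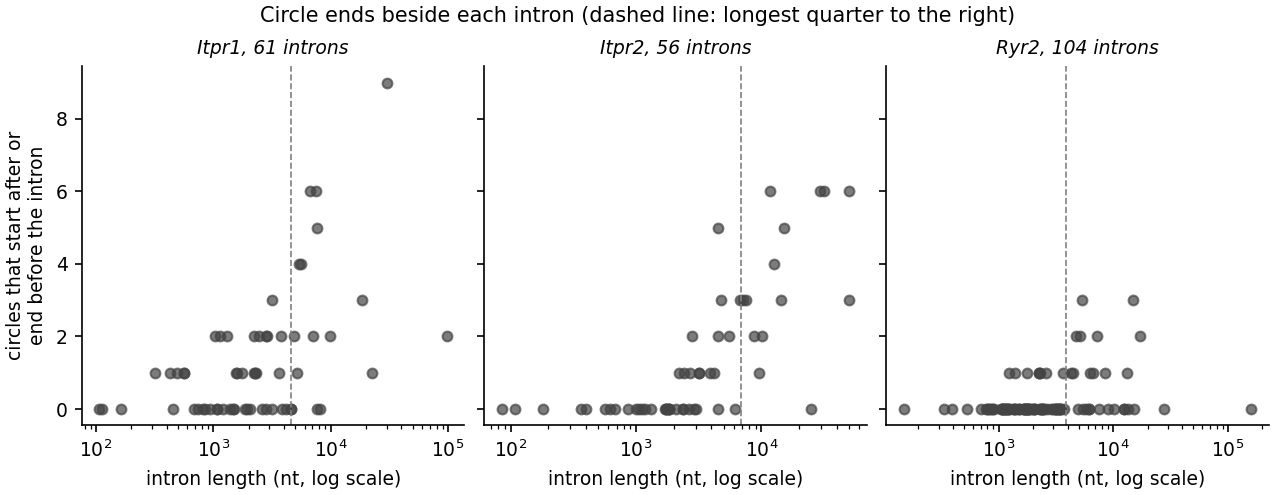
Number of circles that start after or end before each intron of Itpr1 (61 introns), Itpr2 (56) and Ryr2 (104), against intron length in nt on a log scale, with a dashed line that sets off the 15, 14 and 26 longest introns. The introns with the most circle ends, 9 at 1 intron of Itpr1 and 6 each at 4 introns of Itpr2, lie right of the line.

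Paralogs of the release channels and of the exchanger gave fewer circles than the members did, while among channel genes Cacna1c gave more than Cacna1d. Itpr3 had 1 circle, Ryr3 5, Ryr1 2, Slc8a2 and Slc8a3 1 each and the mitochondrial exchanger gene Slc8b1 2. None of their circles was marked. Among them Ryr3 had 1 circle with values in both groups, at 1.39 (p = 0.387), Ryr1 1 at -1.49 (p = 0.595) and Slc8b1 1 at -1.0 (p = 0.23) by the authors' deposited table. Cacna1c, the L-type channel gene best known from heart and smooth muscle, had 13 circRNAs, 1 of them intronic, against 2 of Cacna1d. In the authors' deposited table its 4 circles with values in both groups ran from -0.81 to 0.57, 2 higher in A and 2 in B, where the Cacna1d circles stood at 2.46 and 5.28. The difference between these genes was not tested. Cacna1h, which encodes a T-type channel that mouse oocytes use, had 3 circles, 2 of them with values in 2 or more libraries and both higher in A (p = 0.229 and 0.698 by the authors' deposited table).

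A wider list of 133 other calcium genes was set beside the members. The members, picked with their fold changes in view, were left out of it, so a contrast between list and members tests nothing. CircRNAs were listed for 83 of these genes, 333 in all, a few of them intronic, and 219 of the 333 were higher in A (65.8%, against 66.0% of all circRNAs). Of the 134 circles with values in 2 or more libraries, A held the higher mean for 83 (61.9%, against 70.1% of all circRNAs), and the 101 that were measured in both groups gave a median of 0.12 by the authors' deposited table, against 0.42 over all. The authors marked 5 of the 333 (1.5%, against 1.75%), 4 higher in A and 1 in B. Voltage-gated channel genes contributed Cacnb2, a channel beta subunit, whose circRNA2708 (exons 11 to 13) stood at 2.91 by the authors' deposited table (p = 0.0203). Upstream of IP3, the phospholipase C epsilon gene Plce1 had circRNA1433 (exons 5 to 7) 10.2-fold higher in A by the authors' deposited table (p = 0.00335), and each of its 6 circles seen in at least 2 libraries was higher in A.

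Downstream of calcium, the calcineurin regulatory subunit gene Ppp3r1 had circRNA435 (exons 3 to 5) in A only (p = 0.00918 by the authors' deposited table). The protein kinase C beta gene Prkcb had circRNA1785 (exons 6 and 7) in A only (p = 0.0242 by the authors' deposited table). A calcineurin catalytic subunit gene, Ppp3cc, had circRNA21072 (exons 7 and 8, 173 nt) in B only (p = 0.0309 by the authors' deposited table), although the other 7 of its circles seen in at least 2 libraries were higher in A; it gave 16 circles, the most among kinases, phosphatases and sensors. Of the store release genes beside the members 0 of 51 circles were marked, of pumps and exchangers 0 of 26, of store-operated and other entry 0 of 60 and of mitochondrial uptake 0 of 15. With 1.75% of all circRNAs marked, counts of this size say nothing about these groups. The most circles among store release genes came from Asph, whose locus also encodes junctin of the release complex (15), among pumps and exchangers from the Golgi pump gene Atp2c1 (7) and among entry genes from the polycystin gene Pkd1 (16). Among genes upstream of IP3, Inpp5a, whose product degrades IP3, had 8 circles, as many as Plce1 and Plcg1, and its 3 with values in both groups ran from -0.10 to -0.05 by the authors' deposited table.

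By mean log2 fold change over circles with values in both groups, from the authors' deposited table, the hosts nearest to Itpr1 (0.60) among 366 hosts with at least 5 such circles were Zfyve9 (0.60), Sap130 (0.59) and Bptf (0.60). Nearest to Itpr2 (1.16) were Dync2h1 (1.16), Gm15800 (1.16) and Xrcc4 (1.15). Ryr2 (1.12, 2 circles) was matched most closely by Rere (1.12), Trip12 (1.13) and Cep112 (1.12), and Slc8a1 (1.51, 3 circles) by Rnf213 (1.52), Ttc23 (1.5) and Magi1 (1.53). For Cacna1d (3.87, 2 circles) the nearest hosts were Adamts19 (2.88), Zfp407 (2.86) and Sdk1 (2.63), and the smallest difference was 0.98. Each fold change compares only 2 group means, so the likeness is over 2 points.

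Markers of ovarian and of other cells were looked up among the hosts. Circles were listed for 4 of 7 granulosa markers, 4 of 9 oocyte markers, 3 of 5 markers of theca and other steroid-making cells and 4 of 4 endothelial markers. They were listed for 2 of 5 heart and skeletal muscle markers (Myh7 and Ttn, 1 circle each with a value in 1 library), 1 of 5 smooth muscle markers (Myh11), 0 of 4 neuron markers and 0 of 3 leukocyte markers among the circRNAs analysed here. A gene can be expressed without a listed circle, so this gives no level. Each of the 6 oocyte marker circles seen in at least 2 libraries was higher in A, beside 70.1% of all such circRNAs. Of these 6, Kit gave 4, and Zp2 and Ddx4 gave 1 each. The 3 of steroid-making cells (2 of Lhcgr, 1 of Cyp11a1) and the 1 of granulosa cells (Cyp19a1) were higher in B. Of endothelial marker circles 2 were higher in A and 1 in B, and the 1 of smooth muscle was higher in B. Circles of so few hosts do not stand for a cell type. The part of these cell types in the direction of the calcium gene circles was not tested.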

How the data were processed

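Per the labels' protocols, total RNA (5 µg) was digested with RNase R at 3 units per µg for 15 min before library construction from 1 µg and 150 nt paired-end sequencing. The submitters' processing notes name Bowtie 0.12.2 and GRCm38; the sources used here do not give the circRNA caller, its filters or the test behind the p-values. The authors deposited a list of circRNAs with the number of exons of each, and a comparison of A over B with a log2 fold change of mean FPKM, a p-value and an adjusted p-value (headed FDR). Each table lists 27999 circRNAs in common; 1 further line per table was not analysed here. Per the file headers, 24 columns that hold values of single libraries and 2 of group means carry only the letters A and B; they match no label and were not used, so depth is unknown, no count test was run, and no interval per library is given.

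The mark equalled p under 0.05 with a log2 fold change of 1 or more in either direction for all 27999 circRNAs, adjusted p-values being over the whole table. Circles were placed on the authors' named isoform in GENCODE M21 (GRCm38; 25828 of 26144 exonic circRNAs placed), by steps tested on simulated data. Coordinates count from 1. Proteins of Itpr1 and Itpr2 were aligned globally (Biopython 1.88, BLOSUM62). Tables were made with Python 3.11.15, pandas 2.3.3 and scipy 1.17.1. The members and lists were chosen with earlier results of these data known. For each host the text names marked circles, those with the smallest p, the most and the fewest exons and the largest fold, and the most used splice site; of the calcium list, hosts with a marked circle or with the most circles of a group (1 such host is not reported here); and, as most alike, the 3 hosts with the nearest mean log2 fold change. Circles printed whole, Ryr1, Ryr3, Cacna1c, Cacna1h and other paralogs, and circles named for a shared end were chosen after their values were seen.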

Additional observations from a re-analysis of the deposited data

How the results depend on the processing

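The share of member circles higher in A (90.9% of 44) ran from 81.4% without a filter to 95% as the mean of the 5 hosts over the 9 other settings tried. Without Slc8a1 or without Ryr2 it was 90.0%. As the hosts were picked with these fold changes in view, a share that holds over the settings tests nothing. The number of marked circles, 5, stayed at 5 with p under 0.05 alone, with 1 circle per start site, after taking off the median fold change of all circRNAs, and without Itpr1, and was 4 without Ryr2, Cacna1d or Slc8a1. It was 2 at p under 0.01, 2 among circles with values in both groups, 0 by adjusted p under 0.05 (5 had an unadjusted p under 0.05 by the authors' deposited table) and 3 without Itpr2, in each case because fewer circles can pass. The 5 marked circles of the wider calcium list likewise became 2 at p under 0.01 and 2 among circles with values in both groups. Circles with flanking introns longer than the others were 94.8%, and 84.5% by the upstream intron alone. The cause of this change was not tested. The 84.8% of all exonic circRNAs is by the mean of both introns, so it cannot be set against the upstream share. The 114 different splice sites had no alternative. No paired analysis was possible because the columns carry letters that match no label, and for the same reason leaving out replicates was not run. For the 53 circles with a value in 1 library, the sign tells only which group holds that library.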
